A study of Mus musculus with 33 samples.

Results

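Heme, metal and redox stress genes were followed through heat shock in MEFs, cultured fibroblasts taken from mouse embryos. The 10 genes were Hmox1, Fth1, Mt1, Mt2, Srxn1, Txnrd1, Gclm, Slc7a11, Nqo1 and Osgin1, out of 21627 annotated protein-coding genes (autosomes and X). They were chosen partly by measured values, the peaks within 5 kb of some of them at 60 min. What the 60 min wild type lists show for them is therefore a description and not a test. A peak was assigned to a gene when its summit, the point of highest signal, lay inside the gene or within 10 kb of either annotated end.

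The study used chromatin immunoprecipitation with sequencing (ChIP-seq). Each of 15 samples is represented by a list of peaks, places that held more tags (mapped reads) than the background. Wild type and HSF1-/- cells, all of the strain background 129Sv.BALB/c, were taken unheated and after 12 and 60 min of heat shock, and each was precipitated with antibodies labelled CS (bought from Cell Signaling) and MM (a gift from the Morimoto lab). The file headers call the experiment an Hsf1 ChIP-seq. Wild type cells of the same times were also precipitated with an antibody to SRF, another transcription factor. The labels do not say whether the knockout cells are a single line, and peak lists do not show the deletion or the cell type themselves. The sources used here do not give the heat shock temperature.

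HSF1 is the transcription factor that drives the classic heat shock response by binding repeated short motifs, the heat shock elements, near chaperone genes. The genes described here belong to a different branch of stress biology. They handle heme, iron, zinc and reactive oxygen, and most are textbook targets of NRF2, which binds antioxidant response elements, while the metallothioneins are targets of MTF1, which binds metal response elements. Some of them, Hmox1 in particular, are also known to respond to heat.

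Each combination of genotype, time and antibody had 1 list, so no value has a replicate error and no test between conditions was possible. The wild type CS and MM libraries held 14013456 to 26301665 tags after removal of duplicates, those of the knockout 5183722 to 15582874 and the SRF libraries 750970 to 1548276. Per the file headers the wild type CS and MM lists came from a merge of 2 replicates, so their tag totals are pooled. Wild type peaks were called against IgG and knockout peaks without a control library, so peak numbers of the genotypes are not on one scale. Tags and fold enrichments are the authors' values for each peak. They are set side by side between lists and ranked only within a list, because the lists differ in depth and length.

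The promoters that lay under a wild type peak are shown first, because they are the only stretches under these peaks whose sequence was given. A window of 300 bases around each listed start (250 before it and 50 from it on) was available for 9 of the 10 genes, 12 windows in all, and not for Hmox1. Of the 12 windows, 3 were overlapped by a wild type peak, all at 60 min: those of Mt1, Srxn1 and a start inside Txnrd1. Below are the 250 bases before the start of these 3, with those of Mt2, whose nearest peak ended 373 bp short of its window, and of Gclm, which had no wild type peak. They come from RefSeq, build GRCm38.p6, and read 5′ to 3′ on the gene's strand, here the plus strand. Capitals mark the matches to the motifs given after them. Gclm was added outside the plan, which was to print promoters with a wild type peak within 1 kb of the start. The windows of Nqo1 and Slc7a11, also without a wild type peak, held no match to these motifs and are not printed.
Mt1 (chr8:94178839-94179088): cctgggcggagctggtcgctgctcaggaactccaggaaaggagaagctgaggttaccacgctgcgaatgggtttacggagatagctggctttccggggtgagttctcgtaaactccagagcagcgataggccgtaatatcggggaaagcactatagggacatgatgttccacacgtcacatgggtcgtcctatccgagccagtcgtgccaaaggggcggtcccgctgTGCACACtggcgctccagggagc
Srxn1 (chr2:152105274-152105523): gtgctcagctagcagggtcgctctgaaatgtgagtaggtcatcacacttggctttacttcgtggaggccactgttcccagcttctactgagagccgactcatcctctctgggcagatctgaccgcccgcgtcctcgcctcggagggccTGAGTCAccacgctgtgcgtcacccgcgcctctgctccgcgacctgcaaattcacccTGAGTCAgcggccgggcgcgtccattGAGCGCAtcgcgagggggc
Txnrd1 (chr10:82858956-82859205): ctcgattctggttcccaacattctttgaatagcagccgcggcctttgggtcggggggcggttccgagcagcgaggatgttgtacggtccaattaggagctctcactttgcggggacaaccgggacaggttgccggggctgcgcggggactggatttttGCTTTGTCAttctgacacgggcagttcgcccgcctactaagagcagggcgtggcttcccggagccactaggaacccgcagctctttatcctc
Mt2 (chr8:94172368-94172617): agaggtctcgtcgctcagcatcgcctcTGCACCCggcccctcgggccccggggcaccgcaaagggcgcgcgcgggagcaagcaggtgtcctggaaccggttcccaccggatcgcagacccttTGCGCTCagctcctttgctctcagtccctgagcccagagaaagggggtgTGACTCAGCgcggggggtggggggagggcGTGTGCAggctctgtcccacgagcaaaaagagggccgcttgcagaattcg
Gclm (chr3:122245307-122245556): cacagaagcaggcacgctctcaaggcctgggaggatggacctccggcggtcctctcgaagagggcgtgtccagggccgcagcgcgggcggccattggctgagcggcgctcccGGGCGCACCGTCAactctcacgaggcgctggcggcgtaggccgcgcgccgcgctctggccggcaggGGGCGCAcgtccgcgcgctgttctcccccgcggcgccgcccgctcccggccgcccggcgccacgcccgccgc

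Motifs were searched on both strands of the whole windows. The 2-unit heat shock element, GAANNTTC or TTCNNGAA, was in 0 of the 12 member windows, against 15.1% of all 32619 promoter windows of the same length. The longer 3-unit form adds a further inverted unit at the same spacing and so contains both 2-unit forms. Its 2 spellings are reverse complements, so the search of both strands finds the same windows with either. It was in 0.607% of all windows and in 0 of the 12. These letters are absent from these windows only, and most of the peaks described below lay outside them.

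The core of the antioxidant response element, TGACNNNGC, was in 4 of the 12 windows (12.4% of all), namely those of Gclm, Mt2, Srxn1 and the Txnrd1 start inside the gene. In Srxn1 it fell after the start, in a part not printed. TGACTCA, the AP-1 motif, was in 3 (5.22% of all), with 2 copies in Srxn1 and 1 each in Mt2 and Osgin1, and the Mt2 copy overlaps its TGACNNNGC match. The core of the metal response element, TGCACNC or TGCGCNC, was in 4 (25.9% of all): 4 copies in Mt2, a number reached by 0.521% of all windows, 3 each in Mt1 and Gclm and 1 in Srxn1. Of the Mt1 copies 1 is in the bases printed, at position -23 from the start, and the others follow the start. In Gclm a metal core overlaps the TGACNNNGC match.

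Before heat shock none of the 10 genes had a wild type CS or MM peak, against 0.707% (CS) and 2.03% (MM) of all protein-coding genes. At 12 min 1 gene had them, Fth1, against 6.41% (CS) and 7.23% (MM) of all genes. At 60 min CS and MM each had peaks at 7 genes, Hmox1, Fth1, Mt1, Mt2, Srxn1, Txnrd1 and Osgin1, against 13.9% (CS) and 15.4% (MM) of all genes, and nothing is read from this difference because these peaks helped to choose the genes. Gclm, Slc7a11 and Nqo1 had no wild type CS or MM peak at any time. None of the 10 had an SRF peak at any time, where 0.194% (unheated), 0.254% (12 min) and 0.0879% (60 min) of all genes had one.

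**Figure D1:**
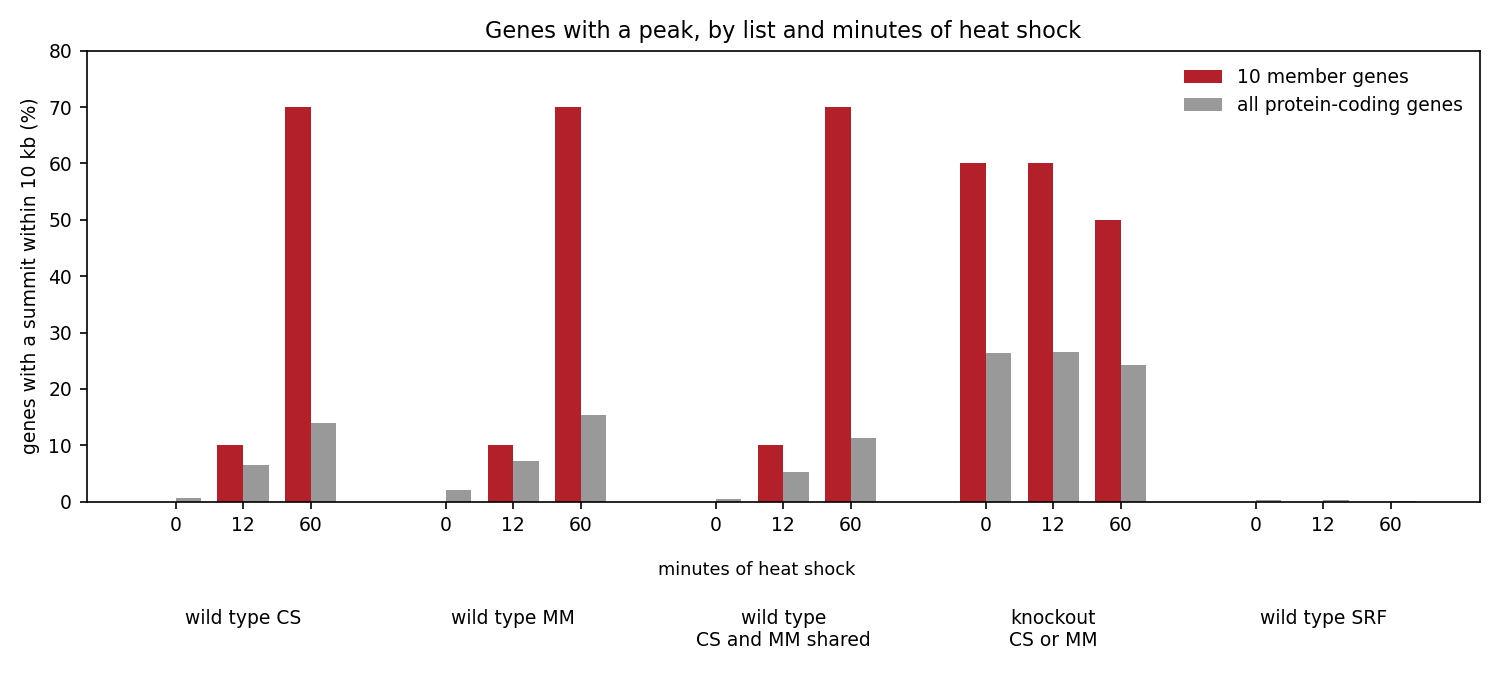
Percentage of the 10 member genes (red) and of all protein-coding genes (grey) with a summit within 10 kb, for each kind of list at 0, 12 and 60 min of heat shock (x axis); there is 1 list per bar or, for shared and knockout bars, 1 pair of lists. In wild type CS and MM lists members stand at 0% in unheated cells, at 10% after 12 min and at 70% after 60 min, and the 60 min peaks were used to choose them.

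A region shared by the antibodies is a group of overlapping CS and MM peaks of the same time. The same 7 genes had a shared region at 60 min (11.2% of all genes), Fth1 had them at 12 min (5.33% of all) and none did before heat shock (0.527% of all). There were 11 such regions at 60 min, and the CS and MM summits within them lay 12 bp apart at the median (1 to 152 bp), against 19 bp over all 3455 shared regions of that time. Of the 11 regions 2, both at Fth1, lay over a shared region of 12 min, where 35.6% of all 60 min regions did. The 12 min CS and MM libraries were deeper than those of 60 min (26301665 against 19608017 tags for CS, 17741564 against 14013456 for MM), and the smallest peak called at 12 min had 20 CS or 11 MM tags. A gene without a peak in a list may still have had signal under what the authors called.

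**Figure D2:**
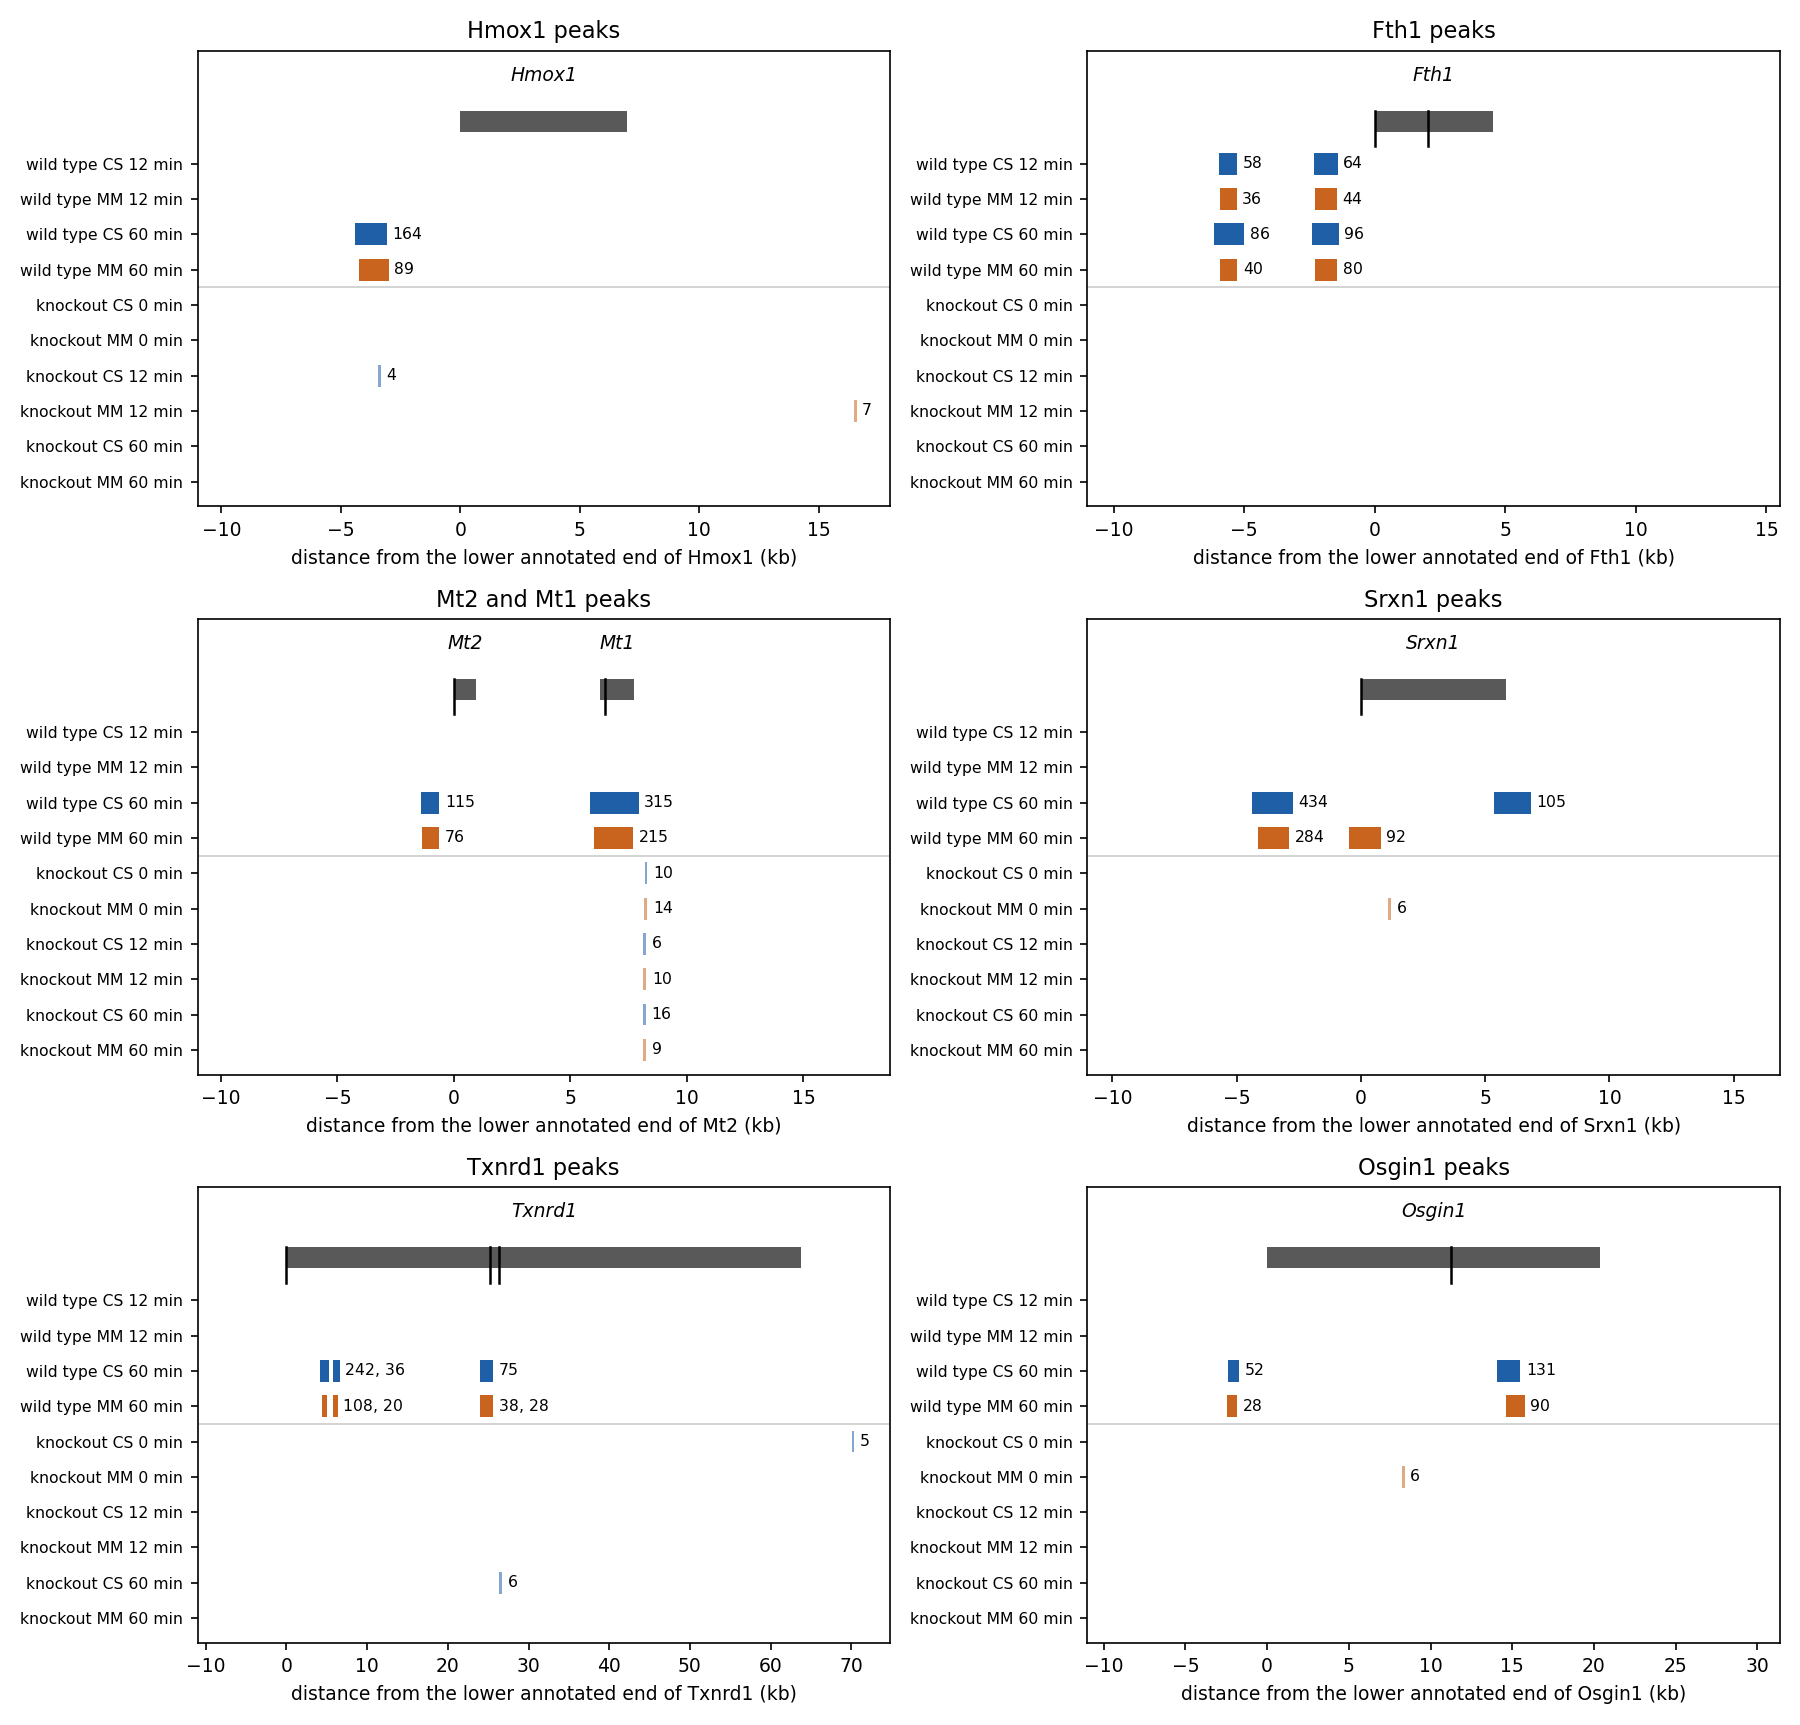
Peaks (bars, drawn from start to end, with their tags beside them) within 10 kb of 7 members in 6 panels; the x axis is the distance in kb from the lower annotated end of the gene named under it, grey boxes are genes, and vertical strokes are listed start sites. Rows are the wild type lists of 12 and 60 min and the 6 knockout lists, and the wild type lists before heat shock held no member peak; only Fth1 has bars in the 12 min wild type rows, and the knockout bars are narrow.

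Heme and iron come first. Hmox1 encodes heme oxygenase 1, which degrades heme to biliverdin, carbon monoxide and iron. It had no wild type peak before heat shock or at 12 min, and at 60 min a single region (chromosome 8, 75089225 to 75090617) with 164 CS and 89 MM tags. Its CS summit lay 3780 bp below the lower annotated end of the gene and its MM summit 3773 bp, 7 bp apart. The nearest other protein-coding gene, Mcm5, was 19630 bp from the CS summit. By tags the peak ranked 775 of 4773 in the CS list and 762 of 4614 in the MM list, but by fold enrichment only 2049 (32.8-fold) and 2647 (17.5-fold).

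Fth1 encodes the heavy chain of ferritin, the iron storage protein, and was the only member with wild type CS or MM peaks at 12 min. Fth1 has 2 listed starts (9980600 and 9982646), and distances here are from the first, which is closer to the peaks. It carried a pair of regions before its first listed start. The nearer one, with its CS summit at -1865 bp at 12 min and -1862 bp at 60 min, held 64 CS and 44 MM tags at 12 min and 96 CS and 80 MM tags at 60 min. The farther one, with its CS summit at -5599 bp at 12 min and -5579 bp at 60 min, held 58 CS and 36 MM tags at 12 min and 86 CS and 40 MM tags at 60 min. The CS summits of the 2 times were thus 3 and 20 bp apart, and the MM summits 21 and 77 bp.

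By tags the Fth1 CS peaks were of middling size. At 12 min the nearer CS peak ranked 923 of 1781 by tags and the farther one 1028. By fold they ranked 1533 and 816, and the MM peaks of that time 1712 and 952 of 1927. At 60 min the CS peaks ranked 1566 and 1770 of 4773 by tags, and 2400 and 4486 by fold. The MM peaks of 60 min ranked 1321 and 4274 of 4614 by fold. The farther CS peak of 60 min carried a deposited FDR of 9.13%. No Fth1 peak of 12 min had p of 1e-10 or less, the stricter limit tried, and at 60 min the nearer one met it.

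The metallothioneins Mt1 and Mt2 are small cysteine-rich proteins that bind zinc, copper and cadmium, and their genes lie side by side on chromosome 8, so that every peak within 10 kb counts for both. At 60 min the larger region lay over Mt1 (94178472 to 94180545), with 315 CS and 215 MM tags, and the summits were 358 and 367 bp downstream of the start. The CS peak, 2074 bp long, covered all 1445 bp of the annotated Mt1 span and the MM peak 1438 bp of it. These were among the longest peaks of their lists (180 of 4773 by length for CS and 85 of 4614 for MM). By tags they ranked 240 and 182, by fold 2204 and 1463.

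The second region of the pair lay before Mt2 (94171224 to 94171994), with summits at -1015 bp (CS) and -993 bp (MM) from its start. It held 115 CS and 76 MM tags. Neither region had a wild type peak before heat shock or at 12 min.

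Sulfiredoxin and thioredoxin reductase keep peroxiredoxins and thioredoxin active. Srxn1, which encodes sulfiredoxin, had the highest peak of the 10 genes. At 60 min it held 434 CS and 284 MM tags in a region on chromosome 2 (152101133 to 152102788), with summits at -3617 bp (CS) and -3606 bp (MM) from the start. It ranked 108 of 4773 (CS) and 96 of 4614 (MM) by tags, and 452 and 216 by fold (86.1-fold and 85.5-fold). The gene Scrt2 lies 6105 bp from the CS summit on the other side, and the peak cannot be assigned to either gene from its position.

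At the ends of Srxn1 the CS and MM lists held different peaks. CS had a peak of 105 tags with its summit 101 bp past the gene's upper end, and MM one of 92 tags with its summit 102 bp before the start, over the promoter printed above. Neither had a partner in the other list. The MM peak had a fold of 6.07, rank 4601 of 4614, and a deposited FDR of 5.58%, so the promoter itself carried one of the weakest folds of that list. The CS peak had a fold of 17.5, rank 4115 of 4773. By tags the MM peak ranked 726 and the CS peak 1369.

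Txnrd1 encodes cytosolic thioredoxin reductase and has 3 listed starts. Its main region at 60 min lay inside the gene (chromosome 10, 82838071 to 82839246), 4727 bp (CS) and 4728 bp (MM) downstream of the first start, with summits 1 bp apart. With 242 CS and 108 MM tags it ranked 420 and 584 by tags, but 50 of 4773 and 64 of 4614 by fold (176.1-fold and 124-fold), the highest folds among the 10 genes. A small region followed (36 CS and 20 MM tags, with deposited FDRs of 18.04% and 5.28%).

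Another Txnrd1 region extended over the second start, with 75 CS tags in 1 peak and 38 and 28 MM tags in 2 peaks. The summits of the CS peak and the larger MM peak lay upstream, at -829 bp and -854 bp from that start. The CS peak and the smaller MM peak covered the promoter printed above, and the summit of that MM peak was 19 bp before the start, with an FDR of 12.07%. These peaks were low by fold, with ranks of 4689 (CS), 3515 and 4515 (MM).

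Osgin1, an oxidative stress induced growth inhibitor, had its larger region inside the gene at 60 min, 3856 bp (CS) and 3849 bp (MM) downstream of the listed start, with 131 CS and 90 MM tags. The second region, with 52 CS and 28 MM tags, lay 2156 bp below the annotated gene by its CS summit and nearer to the neighbour Mlycd, at 1888 bp. Measured from the listed start, that summit was at -13421 bp. The MM peak of this second region had a deposited FDR of 11.93%.

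Gclm, the modifier subunit of the enzyme that starts glutathione synthesis, Slc7a11, the cystine transporter subunit that feeds it, and Nqo1, a quinone reductase, had no wild type CS or MM peak in any list. At 60 min the nearest CS summit was 81.5 kb from Gclm (37 tags), 85.1 kb from Nqo1 (165 tags) and 698 kb from Slc7a11 (56 tags). Their 4 CS and MM lists of 0 and 12 min held no nearer summit than 81.5 kb for Gclm, 85.0 kb for Nqo1 and 1646 kb for Slc7a11.

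**Figure D3:**
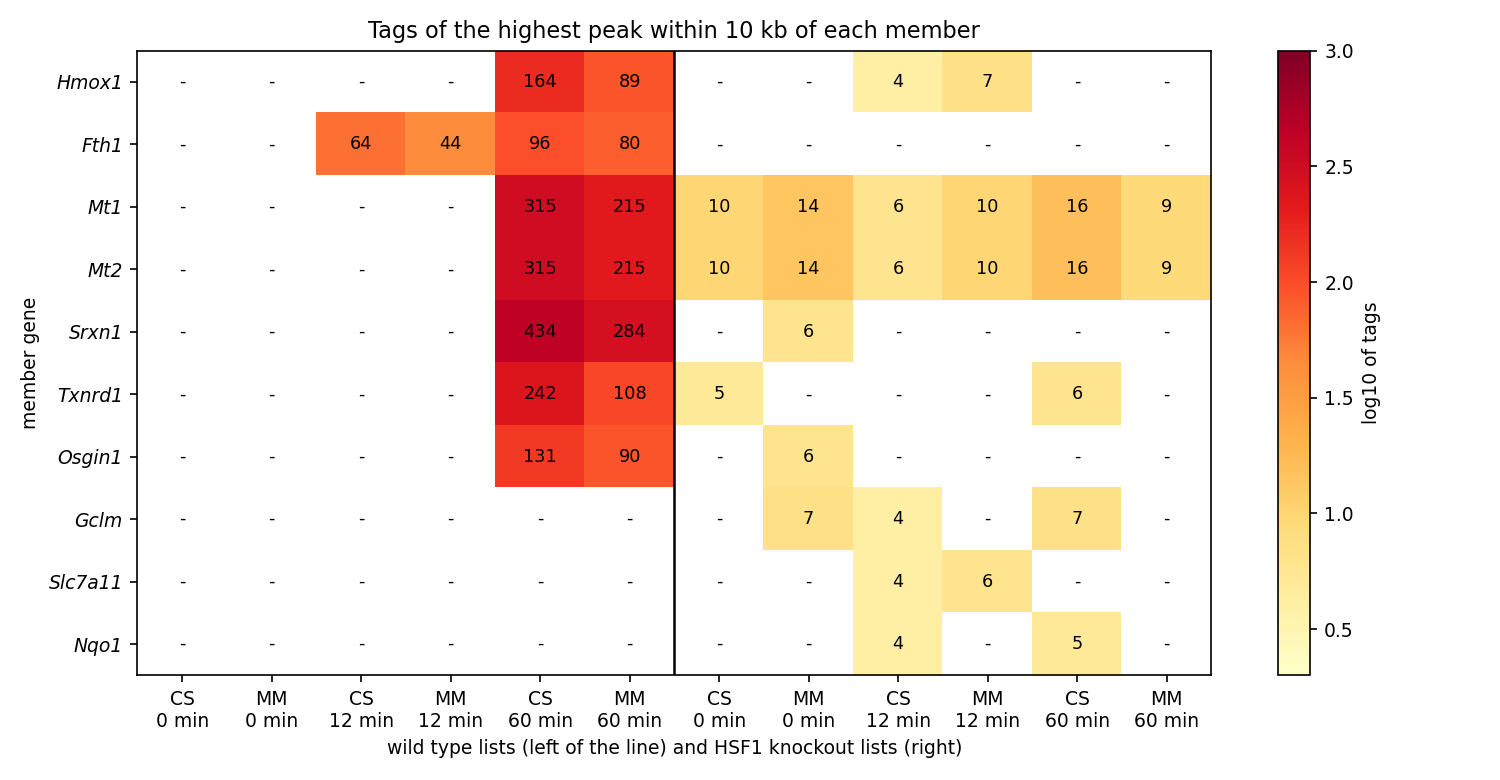
Tags of the highest peak within 10 kb of each member (rows) in the 6 wild type and 6 knockout lists (columns), with the colour on a log10 scale and a dash where there was no peak; Mt1 and Mt2 share their peaks. Wild type values run from 44 to 434, with those of 12 min at Fth1 alone, and knockout values from 4 to 16.

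Within the 60 min lists the members' peaks spread widely by tags. The 12 CS peaks stood between the top 2.26% and the top 82.6% by tags (median 27.1%), and the 13 MM peaks between 2.08% and 82.2% (median 18.8%). Their median of 110 CS tags stands beside 65 over the list, and their median of 80 MM tags beside 36. By fold they were near the list, with medians of 30.2 (CS) and 17.5 (MM) against 29.3 and 19.5. The same peaks helped to choose the genes, so these are descriptions.

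For scale, the chaperone genes Hsp90ab1 and Hspa1b stood far above them by tags, and by fold above all but the main peaks of Srxn1 and Txnrd1. Hsp90ab1, a cytosolic Hsp90, had 1818 CS tags at 60 min (rank 1) and Hspa1b, a stress-inducible Hsp70, 1402 (rank 3). Their CS folds of 53.1 (rank 1055) and 49.9 (rank 1145) were below those of the main Srxn1 and Txnrd1 peaks. The next member by the CS fold of its highest peak was Osgin1, at 41.6. Jun, an AP-1 subunit, had 293 CS tags at 60 min (rank 284), between Mt1 and Txnrd1, and Jund, another, 244 (rank 414), next to Txnrd1. Hsp90ab1, Hspa1b, Jun and Jund all had 12 min CS peaks as well, with 1452, 802, 183 and 69 tags. Atf3, a stress-induced factor, had none at 12 min and 125 CS tags at 60 min. Hspa1b has a near-identical copy, Hspa1a, and the sources used here do not say how reads of such copies were placed.

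**Figure D4:**
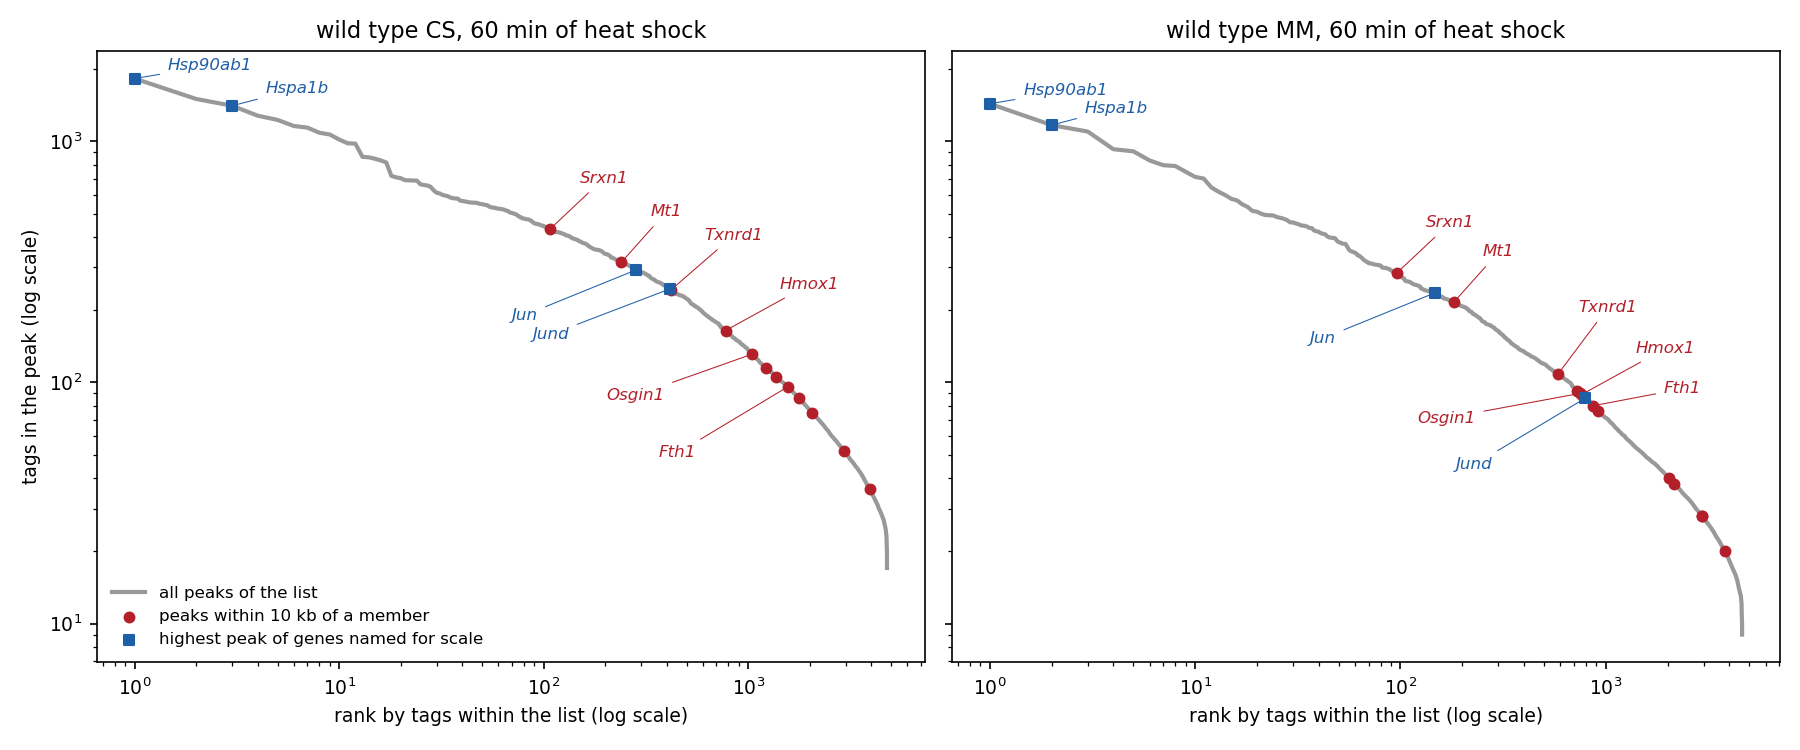
Tags per peak (y axis, log scale) against rank by tags (x axis, log scale) for all peaks of the wild type CS and MM lists at 60 min (grey), with the members' peaks (red) and the highest peak of 4 other genes (blue squares); gene names mark the highest peak of each gene. Srxn1 at ranks 108 and 96 is the highest member, and Hsp90ab1 is at rank 1 in each list.

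Genes with the pattern most like that of Srxn1 were found by the distance between rank percentiles over the 6 wild type CS and MM lists, with absent peaks at 0. The nearest were Scrt2, which shares the peak (distance 0), Prickle1 (0.00959), and Klhl26 and Tmem59l, which have equal values (0.0152). Like Srxn1 they had no peak before heat shock or at 12 min and a high one at 60 min. This likeness follows from the way they were picked and is not a separate result.

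The same antibodies were used on HSF1-/- cells. Knockout peaks were frequent around all genes, and 6 of the 10 members had one in unheated cells (26.4% of all protein-coding genes), 6 at 12 min (26.5%) and 5 at 60 min (24.2%). Over all 6 lists 9 of the 10 had one (48.0% of all genes), Fth1 being the exception. The members' 19 knockout peaks had 4 to 16 tags (median 6) and were 53 to 141 bp long, whereas their 29 wild type peaks had 20 to 434 tags (median 86) and were 591 to 2074 bp long. The knockout lists had medians of 4 to 7 tags and of 84 to 107 bp in length over all peaks. Their fragment lengths in peak calling were 33 to 40 bp. Those of the wild type CS and MM lists of 12 and 60 min were 107 to 161 bp. The part of this in the peak lengths was not tested.

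The knockout peak that recurred lay just past Mt1. It was in all 6 knockout lists, with summits within 20 bp of each other (94180813 to 94180833), 486 to 506 bp past the gene's upper end. Unheated cells gave it 10 CS and 14 MM tags, those of 12 min 6 and 10, and those of 60 min 16 and 9. In 3 of the lists (CS and MM before heat shock and CS at 60 min) it had p of 1e-10 or less, and no other member's knockout peak did.

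This site is separate from the wild type peak over Mt1, whose CS peak ended 185 bp and whose MM peak ended 410 bp before the first base of any of the 6. No wild type list had a peak at it. Mt1 and, by its 10 kb window, Mt2 were the only members with a knockout region found by both antibodies, at each of the 3 times, where 2.37%, 2.01% and 2.55% of all genes had one. Knockout peaks lacked a control library, and its part in this difference was not tested.

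At the other members the knockout peaks did not recur at a place. Of the 29 wild type peaks 2 overlapped a knockout peak, the CS and MM peaks of Hmox1 at 60 min. The knockout peak there was a CS peak of 12 min with 4 tags (75090178 to 75090258), the smallest size called in that list. Txnrd1 had a knockout CS peak of 5 tags in unheated cells, 6320 bp past its upper end, and one of 6 tags at 60 min at its last listed start, which no wild type peak overlapped. Srxn1 and Osgin1 each had an MM peak of 6 tags before heat shock, and Slc7a11 had peaks of 4 (CS) and 6 (MM) tags at 12 min, at different places. Gclm had knockout peaks of 7, 4 and 7 tags, 1 at each time, and Nqo1 peaks of 4 and 5 tags at 12 and 60 min. The Gclm peak of 60 min lay 7145 bp from Gclm and only 54 bp from Dnttip2. The Nqo1 peak of 60 min lay within Nfat5.

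Around the 10 kb limit itself, the outermost peak inside was a knockout MM peak of 12 min, 9543 bp from Hmox1 (7 tags) and within Mcm5. Next came a knockout CS peak of 60 min, 9425 bp from Nqo1 (5 tags) and within Nfat5. The wild type CS peak of 60 min before Mt2, at 7280 bp from Mt1, followed. The first outside were knockout peaks of 60 min at 12095 bp from Txnrd1 (CS, 5 tags) and at 13073 and 13081 bp from Srxn1 (MM, 5 tags, and CS, 9 tags). Those near Srxn1 lay within Scrt2. A wild type region with 108 CS and 66 MM tags at 60 min lay 19177 bp (CS) past Txnrd1.

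The wider pathway was described from 94 other genes in 6 groups: regulators of the antioxidant and metal response, glutathione genes, thioredoxin and peroxide enzymes, heme and iron handling, metallothioneins and zinc transport, and NADPH supply with other enzymes known as NRF2 targets. None had a shared region before heat shock, 5 did at 12 min (5.32%, beside 5.33% of all genes) and 10 at 60 min (10.6%, beside 11.2%). The shares were near those of all genes.

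The regulator group had 2 of 12 genes with a shared region at 60 min. Mtf1, the metal-sensing factor that acts on metallothionein genes, had 204 CS and 154 MM tags at 60 min, 392 bp (CS) from a gene end, and no CS or MM peak at 12 min. Maff, a small partner of NRF2, had 43 CS and 29 MM tags at 12 min, 3773 and 3816 bp from the gene. At 60 min its highest CS peak (89 tags) lay 3801 bp from the gene. Its highest MM peak of that time (61 tags) lay inside the gene, so these values are from different places. Nfe2l2, which encodes NRF2, had MM peaks only, at different places: 20 tags at 12 min, 2831 bp from the gene, and 62 at 60 min, inside it. Keap1, the gene of the NRF2 inhibitor, and Bach1, that of a repressor, had no CS or MM peak in wild type cells.

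Of the wider set's genes with a shared region at 60 min, Aox1, an aldehyde oxidase, had the most CS tags at that time, with 107 CS and 67 MM tags at 12 min and 351 and 161 at 60 min, 94 bp (CS) from a gene end. Of the NADPH group, Pgd, an enzyme of the pentose phosphate pathway, had 37 CS tags at 12 min and 91 at 60 min, and Me1, malic enzyme, 32 CS tags at 60 min only. Txnip, which binds thioredoxin, was the only gene of 17 in the thioredoxin and peroxide group with a shared region, holding 38 CS and 36 MM tags at 12 min and 150 and 64 at 60 min, 6622 bp (CS) from the gene at 60 min.

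Of the heme and iron group, 2 of 20 had a shared region at 60 min: Steap3, a metal reductase, with 63 CS tags at 12 min and 125 at 60 min, and Fech, which completes heme synthesis, with 33 CS tags at 60 min. Of the glutathione group, 2 of 18 did, the exporter genes Abcc1 (111 CS tags) and Abcc4 (67 CS tags). At 12 min Abcc1 had an MM peak of 35 tags and Abcc4 a CS peak of 40 tags, neither in a shared region. None of 9 metallothionein and zinc transport genes other than Mt1 and Mt2 had one. No gene of the wider set had an SRF peak.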

How the data were processed

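ChIP-seq of wild type and HSF1-/- MEFs was analysed from 15 peak lists of the 33 samples. The other samples, nascent RNA, IgG and input libraries, were not analysed here. Per the file headers, MACS 1.4.2 made the CS and MM lists for the authors (p limit 1e-04). Wild type lists used the IgG library of the same time and a merge of 2 replicates, and knockout lists had no control, per the file headers. Per the file headers, MACS2 2.0.9 made the SRF lists, also with IgG as control. The build was mm10, per the submitters' processing notes, and the sources used here name no aligner.

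Each CS and MM peak carries, as deposited, a tag count after duplicate removal, a score (a multiple of the -log10 of p), a fold enrichment (a ratio) and, with a control, an FDR in percent. Each SRF peak carries, as deposited, a pileup (a signal), the -log10 of p and of q and a fold enrichment.

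Gene spans (GRCm38.p6, the primary assembly of mm10) and listed starts came from RefSeq tables. Peaks were ranked within their list (pandas 2.3.3), and CS and MM peaks overlapping by at least 1 bp formed shared regions. Window assignment was tested on simulated peaks. All 10 members were named, with genes of the wider set that had a shared region (8 at most), 6 genes for scale and the 3 genes most like the leading member. Fech, Me1, Tmem59l, Nfe2l2, Keap1, Bach1 and the genes with knockout regions fall outside this rule and were named after their values were seen. The promoter of Gclm was also printed outside the plan. The members and lists were chosen with earlier results of these data known. Alternatives were other windows, stricter p, FDR or q limits, other overlap rules and other ranks. With 1 list per group no test between conditions was run.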

Additional observations from a re-analysis of the deposited data

How the results depend on the processing

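No paired analysis was possible because each group had 1 peak list. The count of 7 members with a CS peak, an MM peak and a shared region at 60 min stayed at 7 within 5 kb, with any base of the peak in the window, with p of 1e-10 or less, with an FDR of 5% or less and, for shared regions, with 50% of both peaks overlapping. Within 1 kb of the gene it was 4 for CS, 5 for MM and 3 for shared regions. Peaks within 5 kb at 60 min helped to choose the genes, so the count within 5 kb was partly set by that choice. The count of 1 at 12 min (CS, MM and shared) became 0 within 1 kb and 0 with p of 1e-10 or less. The counts of 6, 6 and 5 members with a knockout peak became 2, 0 and 2 with p of 1e-10 or less and 2, 2 and 2 where both antibodies had to overlap. At 60 min the knockout count was 2 within 5 kb and 2 within 1 kb. The counts of 0 before heat shock and for SRF were 0 under all alternatives run. Of the 29 wild type peaks 6 had an FDR above 5%. Where both ranks are given above, those by fold differed from those by tags. The depth of a library and the control it was called against set the smallest peak that can be seen, and a missing peak does not show that binding was absent.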

Other observations

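In HSF1-/- cells CS and MM peaks overlapped near some genes of the wider set. Cbr1 and its neighbour Cbr3, carbonyl reductase genes, had one at all 3 times. Txn1, which encodes thioredoxin, had one before heat shock and at 60 min, and Taldo1, an enzyme of the pentose phosphate pathway, at 60 min only. Over all protein-coding genes 2.37%, 2.01% and 2.55% had such a region before, at 12 and at 60 min. None of these 4 genes had a shared wild type region within 10 kb at any time.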
